A study of Mus musculus with 8 samples.

Results

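Expression of 8 genes for non-fibrillar collagens was measured in medial knee cartilage of mice before and 42 days after destabilisation of the medial meniscus (DMM). The genes were chosen by name as the chains of collagens VI and VIII and the single chains of collagens XII, XIV and XVI, namely Col6a1, Col6a2, Col6a3, Col8a1, Col8a2, Col12a1, Col14a1 and Col16a1. All 8 were found among the 50462 gene identifiers of the deposited table. The 8 RNA-seq libraries came from medial cartilage caps of individual wild-type male C57BL/6J mice. The 4 naive mice had no treatment and were 11 weeks old (day 0). The 4 DMM mice had the ligament that ties the medial meniscus to the tibia cut in the left knee at 11 weeks and were sampled at day 42, when they were 17 weeks old. Sham-operated mice were not analysed here. The operated mice were also 6 weeks older than the naive mice, and the effects of age and of surgery cannot be told apart.

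Collagens are built from 3 chains wound into a triple helix, in which glycine recurs in regular Gly-X-Y repeats. Collagen VI is assembled from an alpha 1, an alpha 2 and an alpha 3 chain into beaded filaments, and in cartilage it is concentrated in the pericellular matrix, the thin shell around each chondrocyte. Collagen VIII is a short-chain collagen of 2 kinds of chain known for hexagonal lattices in vessel walls and under the corneal endothelium. Collagens XII, XIV and XVI belong to the fibril-associated collagens with interrupted triple helices (FACITs), which sit on or near the surface of fibrils of collagen I or II and link them to other matrix molecules. Collagens XII and XIV are best known from tendon, ligament and other dense connective tissue.

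All 8 genes are protein coding, and their positions are those of the GENCODE vM21 annotation of GRCm38. Col6a1 (chr10:76708792-76726168) and Col6a2 (chr10:76595762-76623630) stand on the same strand 85161 bases apart, with 1 other gene of the table between them. Col6a3 is at chr1:90765923-90843971, Col8a1 at chr16:57624258-57754737 and Col12a1 at chr9:79598991-79718831. Col14a1 is at chr15:55307750-55520803. Col8a2 (chr4:126286793-126314330) and Col16a1 (chr4:130047840-130099283) share a chromosome but are 3733509 bases apart. Col12a1 overlaps a gene on the opposite strand, 4930562D21Rik, and Col14a1 overlaps 3 (1700040F17Rik, Gm18787 and Gm49257). The use of strand in counting is not given in the sources used here, so reads of these partners could not be told apart from those of Col12a1 and Col14a1 where the exons overlap.

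The coding sequences differ in how much of each chain is collagenous. Translation of the annotated transcripts gave the longest unbroken run of Gly-X-Y triplets as 87 in both Col6a1 and Col6a2 and 45 in Col6a3. Runs of at least 5 triplets covered 31.9% of the residues of Col6a1 and of Col6a2 but 10.0% of the 3284 residues of Col6a3. In the FACIT chains Col12a1 (3065 residues) and Col14a1 (1798 residues), both with a longest run of 32 triplets, these runs covered 8.12% and 13.8%. Col8a1 and Col8a2, with 744 and 699 residues, were collagenous over 58.9% and 63.5% of their length. Col16a1 had 327 triplets broken into 21 runs, the most interruptions of the 8. Col8a1 and Col8a2 were identical at 59.4% of aligned residues, Col12a1 and Col14a1 at 49.5%, and Col6a1 and Col6a2 at 40.0%. At the level of reads the genes were distinct, since at most 0.181% of the 31-base words of any member's exons occurred in another gene.

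The upstream sequences of the chains that assemble into one molecule are shown because these chains are compared with one another below. The RefSeq promoter table (GRCm38.p6) held 6 of the 8 genes, and the 250 bases before the listed start are given 5′ to 3′ on the gene's own strand. Capitals mark matches on either strand to TGANTCA (the AP-1 motif), GGGCGG (the GC box) or CCAAT.
Col6a1 (chr10:76726045-76726294, minus strand): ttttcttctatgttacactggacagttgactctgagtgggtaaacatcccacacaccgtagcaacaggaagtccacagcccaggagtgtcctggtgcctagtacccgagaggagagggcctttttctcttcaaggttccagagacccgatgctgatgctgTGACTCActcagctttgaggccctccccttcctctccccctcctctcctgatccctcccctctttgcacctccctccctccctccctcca
Col6a2 (chr10:76623631-76623880, minus strand): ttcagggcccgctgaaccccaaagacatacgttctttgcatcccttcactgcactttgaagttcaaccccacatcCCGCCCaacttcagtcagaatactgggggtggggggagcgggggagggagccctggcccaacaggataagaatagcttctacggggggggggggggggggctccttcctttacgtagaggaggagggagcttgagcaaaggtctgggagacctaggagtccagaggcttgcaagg
Col6a3 (chr1:90843972-90844221, minus strand): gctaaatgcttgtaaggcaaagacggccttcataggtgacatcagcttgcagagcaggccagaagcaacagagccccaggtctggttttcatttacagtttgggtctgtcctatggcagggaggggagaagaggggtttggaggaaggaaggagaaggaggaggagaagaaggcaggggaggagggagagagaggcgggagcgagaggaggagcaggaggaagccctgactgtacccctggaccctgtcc
Col8a1 (chr16:57754738-57754987, minus strand): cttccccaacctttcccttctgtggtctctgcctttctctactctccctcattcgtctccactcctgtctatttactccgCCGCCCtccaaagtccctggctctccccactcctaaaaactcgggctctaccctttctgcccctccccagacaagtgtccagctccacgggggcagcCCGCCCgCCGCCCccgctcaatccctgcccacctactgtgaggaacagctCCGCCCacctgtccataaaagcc
Col8a2 (chr4:126286544-126286793, plus strand): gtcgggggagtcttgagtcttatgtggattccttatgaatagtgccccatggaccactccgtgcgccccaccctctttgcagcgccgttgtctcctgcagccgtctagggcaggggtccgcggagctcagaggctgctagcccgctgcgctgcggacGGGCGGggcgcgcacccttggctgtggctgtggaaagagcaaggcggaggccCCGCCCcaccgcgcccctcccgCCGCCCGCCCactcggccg
Col6a1 had a single AP-1 match at bases -90 to -84 before its start, a motif held by 6.75% of all 32851 promoters of this length. Its listed start lies 124 bases from the gene start of the other annotation. Col6a2 had 1 GC box and Col6a3 had none of the motifs searched, so the chains of collagen VI shared no motif in this window. Col8a1 and Col8a2 each had 4 GC boxes, of which the 2 closest to the start of Col8a2 overlap. A GC box was present in 32.7% of all promoters and 4 or more in 4.09%. Col16a1, not shown, had 1 GC box and 1 CCAAT match. None of the 6 held TATAAA, present in 12.4% of all promoters, the Sox motifs ACAAAG (16.5%) and, in 10.7%, ACAATG, or the Tead motif GGAATG (12.6%). These matches describe letters only, and binding was not measured.

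Each library held between 12479443 and 16548002 estimated counts in all, and genes with 10 or more counts numbered 16770 to 19271. One identifier without a symbol took between 10.1% and 17.9% of the counts in naive and between 4.31% and 8.65% in DMM libraries, without overlap. The labelled tissue was checked against marker genes. The chondrocyte markers Col2a1 and Acan were abundant, with normalised counts of Acan between 5203 and 8260 in naive mice and between 11598 and 16873 in DMM mice. Not all of that marker list was abundant. Matn3 averaged 128 and 104 normalised counts in naive and DMM mice, Epyc 17.0 and 14.1, and Matn1 5.24 and 0.889. Col1a1 averaged 137561 and 323535, above Col2a1 at 23979 and 63821. Col2a1 made up 7.09% ± 1.17 of all collagen counts in naive and 8.13% ± 3.96 in DMM libraries. Markers of other tissues were present as well. The neutrophil granule gene Ngp reached 42540 and the osteocyte genes Dmp1 and Sost reached 7884 and 5137 normalised counts. In such bulk samples more cells of one type and more RNA per cell cannot be told apart.

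Of the 8 collagen genes, 7 were called higher in DMM and 0 lower when called meant at least a 1.5-fold change and an adjusted p no higher than 0.05 (DESeq2, Benjamini-Hochberg adjustment over all 17760 genes tested). The exception was Col14a1. Over all genes tested, 13.7% were called in either direction and 7.75% were called higher. In 7 of the 8 genes every DMM library was above every naive library, a pattern seen in 11.9% of all genes tested. The median log2 fold change of the 8 was 1.32, against -0.02 over all genes. Fold changes of the 7 called genes lay between 1.92 and 2.77. These counts depend on what the libraries are scaled to. When the chondrocyte marker list alone set the scale, the median log2 fold change of all genes moved to -0.62, 65 genes were called higher and 3125 lower, and 1 collagen gene of the 8 (Col6a1) was still called. All 8 log2 fold changes stayed above 0 on that scale, from 0.40 (Col8a2) to 0.93 (Col6a1). Scaling by the total count gave 2030 genes higher and 489 lower, against 1377 and 1052 here, and called all 8.

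**Figure D1:**
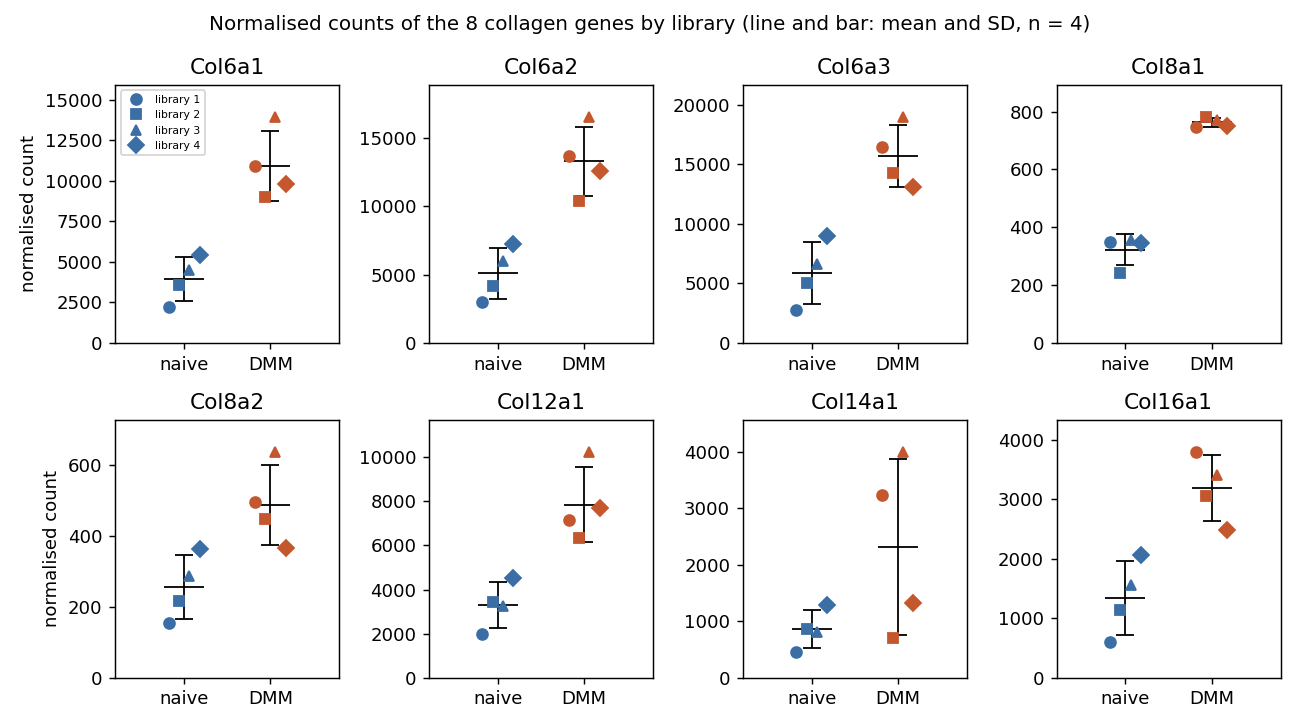
Normalised count (vertical axis, starting at 0) of each of the 8 collagen genes in the 4 naive (blue) and 4 DMM (orange) libraries, with marker shape giving the library number, the horizontal line the group mean and the bar its SD. The groups are apart in every panel but Col14a1, where DMM 2 (706) lies among the naive values, and the 4 DMM values of Col8a1 fall between 748 and 780.

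The 3 chains of collagen VI rose by almost the same factor. Col6a1, the alpha 1 chain, had normalised counts of 2213, 3604, 4530 and 5403 in naive mice 1 to 4 and 10911, 8991, 13934 and 9838 in DMM mice 1 to 4. Its lowest DMM value was 1.66 times its highest naive value. The mean went from 3938 ± 1364 to 10919 ± 2158 (SD, n = 4 each), a log2 fold change of 1.47 (SE 0.23, 95% interval 1.01 to 1.93, DESeq2 adjusted p = 4.27e-08).

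Col6a2, the alpha 2 chain, had 3005, 4181, 5996 and 7207 normalised counts in the naive and 13662, 10398, 16519 and 12578 in the DMM libraries. The groups did not overlap, and naive 1 was lowest and DMM 3 highest, as for Col6a1. Its log2 fold change was 1.38 (SE 0.24, DESeq2 adjusted p = 4.73e-07). Col6a3 encodes the long alpha 3 chain, whose C-terminal end is released as endotrophin. It had 2802, 5057, 6603 and 8981 normalised counts in the naive and 16468, 14233, 18955 and 13076 in the DMM libraries. Naive values spread over 3.21-fold and DMM values over 1.45-fold. The log2 fold change was 1.42 (SE 0.27, DESeq2 adjusted p = 5.80e-06).

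The ratio between chains within a library does not depend on scaling, and it barely moved. Counts of Col6a1 relative to Col6a2 had a geometric mean of 0.775 in naive and 0.822 in DMM libraries, a log2 difference of 0.09 (95% interval -0.14 to 0.23, exact permutation test, two-sided p = 0.20). For Col6a3 relative to Col6a1 the ratio was 1.44 in both groups (interval of the log2 difference -0.32 to 0.32, exact p = 1.0). For Col6a3 relative to Col6a2 it was 1.12 and 1.18, with an interval of -0.26 to 0.55 (exact p = 0.514). After adjustment over the 6 ratios compared here the smallest p was 0.90. No change in these ratios of RNA counts was detectable with 4 libraries a group, while shifts inside these intervals were not distinguished from 0. The proportions of the chains in protein were not measured. The 3 chains made up 70.7% ± 2.08 of the counts of the 8 genes in naive and 73.4% ± 1.18 in DMM libraries (two-sided p = 0.0857, exact permutation test).

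**Figure D2:**
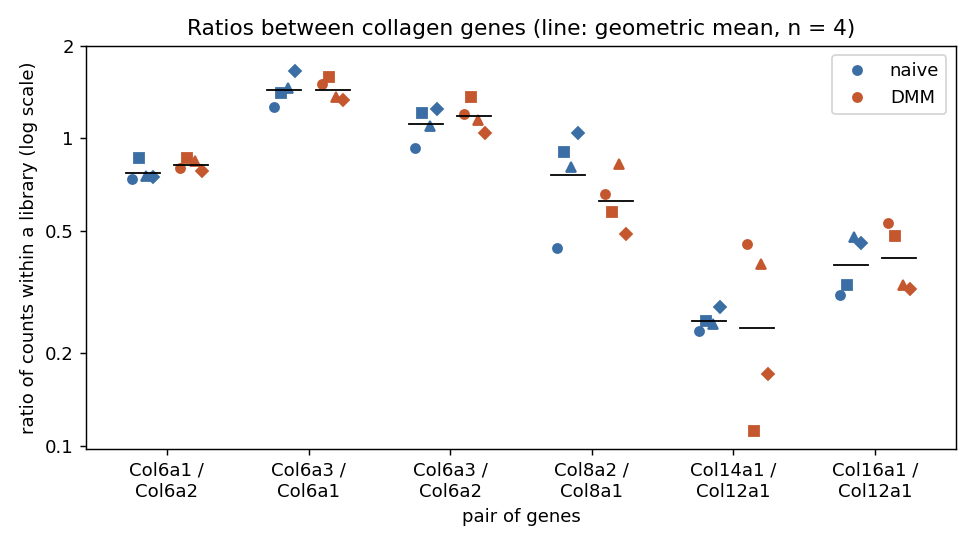
Ratio of the counts of 2 collagen genes within each library (log axis), naive in blue and DMM in orange, with lines at the geometric mean of 4 libraries and marker shapes as in the plot of normalised counts. Ratios within collagen VI are tight and overlap between groups, whereas Col14a1 over Col12a1 spans 0.236 to 0.283 in naive and 0.112 to 0.454 in DMM libraries.

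The other chains of collagen VI, which can take the place of the alpha 3 chain, had few counts. Normalised counts of Col6a5 averaged 16.8 ± 11.9 in naive and 56.9 ± 52.8 in DMM mice (log2 fold change 1.77, SE 0.64, DESeq2 adjusted p = 0.0301) and was called. Col6a6 had means of 30.6 and 101 (log2 fold change 1.72, SE 0.99, adjusted p = 0.219) and was not called. Col6a4 stayed under 10 counts on average in both groups and received no adjusted p.

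Per kilobase of exon, the chains of collagen VIII had the lowest levels of the 8 genes. Col8a1 had 348.2, 240.8, 355.3 and 347.0 normalised counts in naive mice and 748.0, 780.4, 771.3 and 750.9 in DMM mice. It was the steadiest of the 8 genes in DMM libraries, where the highest value was 1.04 times the lowest. The coefficient of variation was 2.06% there and 17.0% in naive libraries, whereas counting alone would give about 3.43% and 5.74%. Its log2 fold change of 1.24 (SE 0.14) had the smallest adjusted p of the 8 genes (DESeq2, 2.20e-16). The adjusted p of Col8a1 was far larger with other tests of the same counts, at 0.0016 in edgeR and 0.0018 in limma-voom.

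Col8a2, the partner chain, had 153.0, 216.8, 285.8 and 362.8 normalised counts in the naive and 495.1, 448.3, 637.2 and 367.3 in the DMM libraries. DMM 4 was only 1.01 times naive 4, so the groups touched without overlapping. Its log2 fold change of 0.94 (SE 0.25, 95% interval 0.45 to 1.43, DESeq2 adjusted p = 0.00209) was the lowest of the 8. The ratio of Col8a2 to Col8a1 was 0.761 in naive and 0.627 in DMM libraries, a log2 difference of -0.28 with a wide interval of -1.09 to 0.90 (exact permutation test, two-sided p = 0.429). Naive 1, at 0.441, lay below all other naive ratios.

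Whether any of the genes changed by a different amount from another was tested over all 28 pairs. The 3 pairs with the smallest p set a chain of collagen VI against Col8a2. Col6a1, Col6a2 and Col6a3 rose relative to Col8a2 by 0.55, 0.47 and 0.55 on the log2 scale, without overlap between groups, each at an exact permutation p of 0.0286, the smallest that 70 assignments allow. Adjusted over the 28 pairs each p was 0.267, and no pair passed. With this smallest p, none could pass unless at least 16 of the 28 pairs reached it, so the absence of a pass says little. The share of Col8a2 in the summed counts of the 8 genes was between 1.16% and 1.32% in naive and 0.764% and 0.998% in DMM libraries (exact permutation p = 0.0286, adjusted over the 8 shares 0.229, where at least 5 shares would have to reach the smallest p for any to pass).

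Among the FACITs, Col12a1, a fibril-surface collagen of loaded connective tissue, had 1958, 3416, 3262 and 4531 normalised counts in naive mice and 7132, 6334, 10242 and 7686 in DMM mice. The groups were apart, with the lowest DMM value 1.40 times the highest naive value. The log2 fold change was 1.25 (SE 0.23, DESeq2 adjusted p = 1.71e-06). Col16a1, known from the pericellular matrix of cartilage and from skin, had 608, 1140, 1562 and 2070 in the naive and 3797, 3050, 3409 and 2488 in the DMM libraries. It had the widest naive spread of the 8 genes, 3.41-fold. Its log2 fold change was 1.24 (SE 0.38, DESeq2 adjusted p = 0.00779), and without DMM 1 it fell just short of the threshold (1.15, adjusted p = 0.051). Relative to Col12a1 its counts had a geometric mean of 0.388 in naive and 0.408 in DMM libraries, a log2 difference of 0.07 (95% interval -0.56 to 0.78, exact permutation test, two-sided p = 0.60).

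Col14a1, the closest relative of Col12a1 in the family, behaved differently among the operated mice. It had 462, 869, 809 and 1284 normalised counts in the naive and 3234, 706, 4001 and 1320 in the DMM libraries. DMM 1 and DMM 3 were above all naive values, DMM 4 was level with the highest of them and DMM 2 was below 3 of the 4. The DMM coefficient of variation was 67.2% with about 1.92% expected from counting. The unshrunken log2 fold change of 1.44 (SE 0.60, 95% interval 0.26 to 2.62) was as large as that of the collagen VI chains but was not called (DESeq2 adjusted p = 0.0682). The shrunken log2 fold change of Col14a1 was 0.57, against 1.20, 1.12 and 1.10 for Col6a1, Col6a2 and Col6a3. Col14a1 was called without DMM 2 (1.74, adjusted p = 0.0069) and without naive 4 (1.70, adjusted p = 0.0434). Relative to Col12a1 it stood at 0.236, 0.255, 0.248 and 0.283 in naive libraries and at 0.454, 0.112, 0.391 and 0.172 in DMM libraries. The group difference of this ratio was -0.08 on the log2 scale, with an interval of -1.34 to 0.94 (exact permutation test, two-sided p = 0.943). Skeletal muscle markers were highest in DMM 1, at 0.00988% of counts, and under 0.001% in the other DMM libraries including DMM 3. The fibroblast list, in which Gsn has the most counts, was at 0.129%, 0.109%, 0.157% and 0.0956% in DMM 1 to 4. The smooth muscle and pericyte list was at 0.0518%, 0.0427%, 0.0561% and 0.0429%. Both lists were thus highest in DMM 3 and next highest in DMM 1, as was Col14a1. The part of any of these lists in the spread of Col14a1 was not tested.

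Seen by library, the genes moved together among naive mice. Naive 1 was the lowest of its group for 7 of the 8 genes and naive 4 the highest for 7, with Col8a1 the exception in both cases. The mean distance from the group mean over the 8 genes was -0.68, -0.10, 0.21 and 0.56 on the log2 scale in naive 1 to 4. In DMM 1 to 4 it was 0.14, -0.31, 0.38 and -0.21. Among these, Col14a1 ranged from -1.40 in DMM 2 to 1.10 in DMM 3, and Col8a1 stayed within 0.03. The summed chondrocyte markers were lowest in naive 1, at 0.350% of counts, but were 0.426% in naive 4 and higher, 0.472% and 0.493%, in naive 2 and 3. Several other lists were highest of the naive libraries in naive 4, namely superficial zone (0.920%), osteoblast and osteocyte (0.212%), fibroblast (0.142%) and tendon and ligament (0.0514%). The osteoclast (0.116%), adipocyte (0.0407%) and smooth muscle and pericyte (0.0306%) lists were highest there too. The neutrophil (0.932%), erythroid (1.08%), B cell (0.0225%) and macrophage (0.170%) lists were instead lowest of the naive libraries in naive 4. The part of any of these in the order of the naive libraries was not tested.

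**Figure D3:**
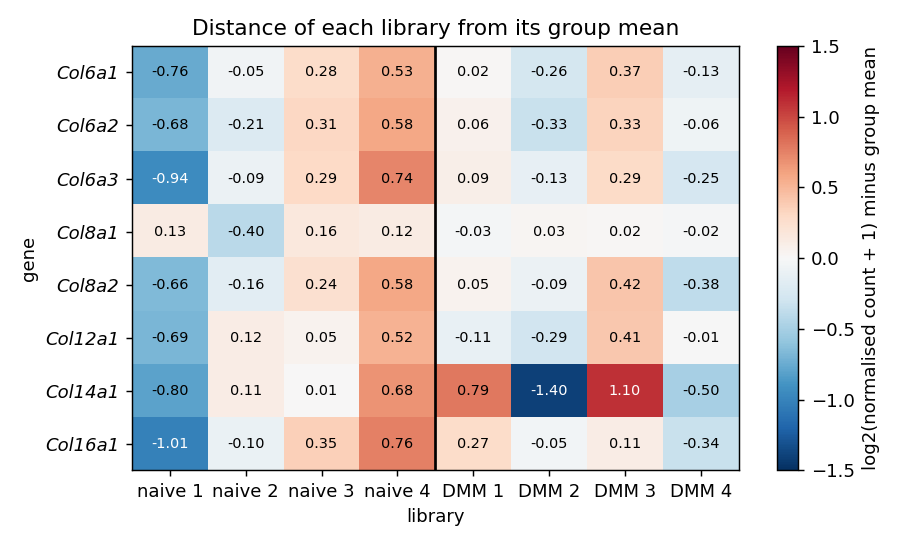
Distance of each library from the mean of its own group, in log2(normalised count + 1), for the 8 collagen genes (rows) and 8 libraries (columns, naive left of the line and DMM right). Naive 4 is positive for every gene and naive 1 negative for every gene but Col8a1 (0.13), and the Col14a1 row holds the widest DMM values, from -1.40 to 1.10.

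Per kilobase of exon, the chains of collagen VI stood highest and those of collagen VIII lowest in both groups. Normalised counts per kilobase averaged 899 in naive and 2493 in DMM libraries for Col6a1, 612 and 1596 for Col6a2, and 490 and 1311 for Col6a3. Col12a1 followed with 216 and 515, Col16a1 with 199 and 472, and Col14a1 with 122 and 330. Col8a2 had 56.7 and 108.5, and Col8a1 41.2 and 97.4. The order was the same in both groups. Col12a1 and Col16a1, neighbours in it, kept that order in only 2 of 4 libraries of each group and were not separated. The level per kilobase rests on the length chosen. With the longest transcript in place of all exons, Col6a2 (1038 and 2705) stood above Col6a1 (960 and 2663) and Col8a1 (63.2 and 149.3) above Col8a2 (58.8 and 112.4). The order of Col6a1 and Col6a2 and that of Col8a1 and Col8a2 were thus not settled by these data. With either length Col6a3 stood below Col6a1 and Col6a2 in every library.

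**Figure D4:**
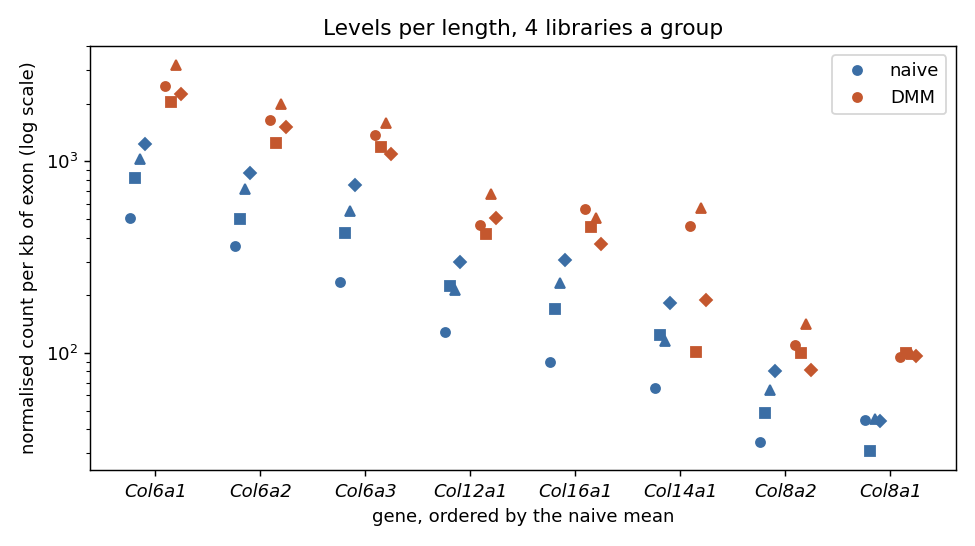
Normalised count per kilobase of exon (log axis) for the 8 collagen genes in order of their naive mean, with 4 naive (blue) and 4 DMM (orange) libraries each. The levels fall from Col6a1 (899 in naive and 2493 in DMM) to Col8a1 (41.2 and 97.4), and the naive and DMM points mix only for Col14a1.

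The 8 genes were also read against the rest of the collagen family. Together they held 0.141% ± 0.0567 of all counts in naive and 0.406% ± 0.0733 in DMM libraries (two-sided p = 0.0286, exact permutation test). Without the abundant identifier that differed between the groups, the shares were 0.167% ± 0.0701 and 0.436% ± 0.0712 (exact p = 0.0286). All 44 collagen genes listed held 2.18% ± 0.387 and 5.97% ± 0.715 (exact p = 0.0286). As a part of collagen counts the 8 genes took 6.52% ± 2.67 and 6.78% ± 0.595, which did not differ beyond the spread (exact permutation p = 0.943). The naive share ran from 4.25% in naive 2 to 10.1% in naive 4, and the DMM share only from 6.37% to 7.63%.

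Of the 36 other collagen genes, 34 had an adjusted p, and 18 were called higher and 0 lower, with a median log2 fold change of 0.88. The fibrillar collagens I, III and V, which form the main fibrils of bone, ligament and scar, were called higher in 6 of 6 (median 1.29). The 3 with the smallest adjusted p were Col5a2, Col5a1 and Col1a2, with log2 fold changes of 1.34, 1.48 and 1.22. Of the cartilage collagens 5 of 8 were called higher (median 0.82), with the smallest adjusted p for Col27a1 (1.19), Col10a1 (1.12) and Col11a1 (0.88) and the largest change in Col2a1 (1.41, SE 0.42). The 3 chains of collagen IX, a FACIT of collagen II fibrils, were not called, at 0.57 for Col9a2, 0.22 for Col9a3 and -0.36 for Col9a1. Basement membrane collagens were called higher in 4 of 8 (median 0.66), with the smallest adjusted p for Col15a1 (1.82), Col18a1 (1.72) and Col4a1 (0.93). Of 10 remaining collagens 2 were called higher, Col13a1 (1.12) and Col24a1 (1.20). The FACITs Col20a1 and Col22a1, in that last list, were at 0.13 and 0.25 and were not called. Col19a1, another FACIT of that list, had few counts and went the other way. It averaged 13.9 ± 2.32 normalised counts in naive and 4.57 ± 3.16 in DMM mice (log2 fold change -1.62, SE 0.60). The groups did not overlap, but it received no adjusted p.

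**Figure D5:**
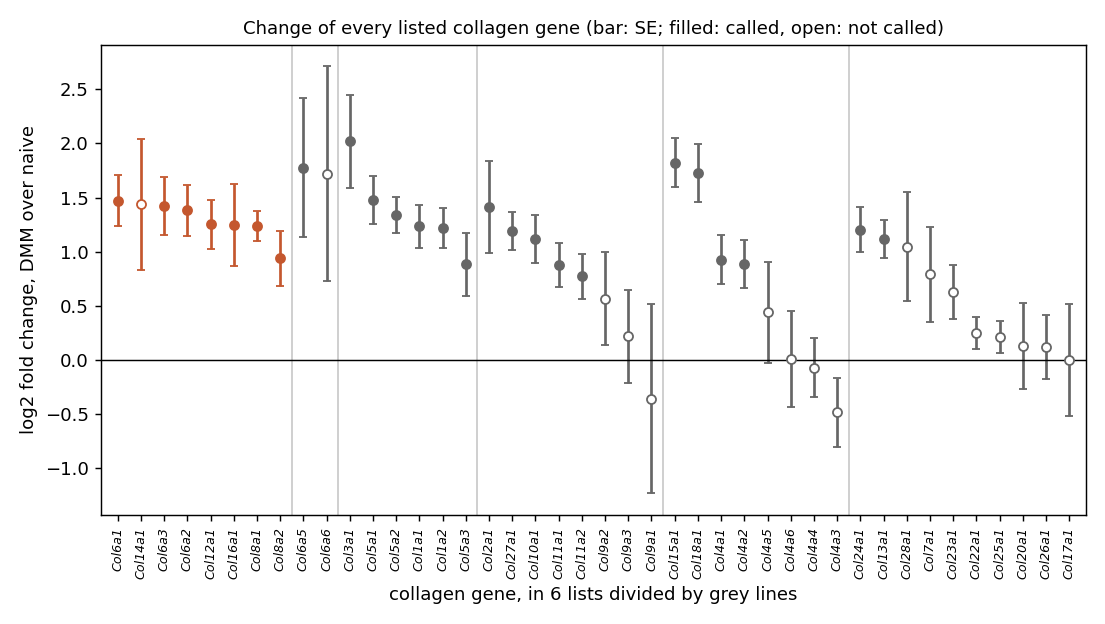
Log2 fold change, DMM over naive, with its SE, for the 42 listed collagen genes that received an adjusted p, the 8 described here in orange and the rest in grey, in lists divided by grey lines. Filled points were called and open points were not, and no gene was called lower.

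Partners of these collagens were read from lists. Of 17 collagen VI partners and receptors with an adjusted p, 11 were called higher and 0 lower (median log2 fold change 0.84). The 3 with the smallest adjusted p were Antxr1 (1.61, SE 0.21), Matn2, an adaptor matrilin (1.57, SE 0.26), and the proteoglycan Dcn (1.30, SE 0.23). Antxr1 is anthrax toxin receptor 1, a collagen VI receptor. The proteoglycan receptor Cspg4 (NG2) and the collagen receptor Ddr2 were called, at 0.85 and 0.76. Of the integrin alpha chains that bind collagen, Itga11 was called (1.20, SE 0.22), and Itga10, Itga1 and Itga2 were not, at 0.58, 0.25 and 0.06. Itga10 had a DESeq2 adjusted p of 0.000429 but a change under 1.5-fold. The same held for the receptor Antxr2 (0.45, DESeq2 adjusted p = 0.000252), which was not called. Among 12 proteins of the fibril surface that go with FACITs, 10 were called higher (median 1.32), with the smallest adjusted p for Fmod (2.08, SE 0.20), Comp (1.35, SE 0.20) and Dcn. The largest log2 fold change there was that of Aspn (2.21, SE 0.54). The 2 not called higher were Tnxb, at -0.07, and Thbs1, at -0.56 with a DESeq2 adjusted p of 9.03e-05 but a change under 1.5-fold. Of 25 enzymes and chaperones of collagen processing, 16 were called higher and 0 lower (median 0.80), and the smallest adjusted p values were those of Fkbp10 (0.91), Plod2 (1.08) and Adamts2 (0.87).

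Some marker lists of other cell types rose with the collagens, and others fell or overlapped between groups. Osteoblast and osteocyte markers rose from between 0.141% and 0.212% to between 0.347% and 0.607% of counts, with 9 of 11 called higher. Tendon and ligament markers went from 0.0270% to 0.0514% up to 0.0757% to 0.116%, with 4 of 7 called, and Fmod is on both this list and the one of fibril-surface proteins. Smooth muscle and pericyte markers went from 0.0167% to 0.0306% up to 0.0427% to 0.0561%, with 6 of 8 called, and endothelial markers from 0.0228% to 0.0309% up to 0.0363% to 0.0432%, with 4 of 8 called. The chondrocyte list rose too, from 0.350% to 0.493% up to 0.738% to 1.35% of counts, but only 5 of its 14 markers with an adjusted p were called higher. Cytl1, a secreted chondrocyte protein, was called lower (log2 fold change -1.21, DESeq2 adjusted p = 7.60e-08). Each of these 5 lists had an exact permutation p of 0.0286, and 0.0667 when adjusted over 14 lists, where no list could pass unless at least 8 reached the smallest p. Neutrophil markers fell from 0.932% to 1.31% down to 0.441% to 0.927%, with 11 of 12 called lower and the same p values. Fibroblast markers overlapped between groups, at 0.0723% to 0.142% in naive and 0.0956% to 0.157% in DMM (exact permutation p = 0.257), although 7 of 12 were called higher. Gsn had the most counts of these 12 and weighs most in that sum. It averaged 10773 normalised counts in naive and 10525 in DMM mice (log2 fold change -0.03) and was not called. Of 9 erythroid markers 8 were called lower (median log2 fold change -0.97). Their sum overlapped between groups through DMM 3 alone, with 1.08% to 1.81% of counts in naive libraries, 1.26% in DMM 3 and 0.598% to 0.653% in DMM 1, 2 and 4 (exact permutation p = 0.0857). The other 6 lists overlapped, with exact permutation p values of 0.0857 to 0.714, and the called markers were 1 of 6 higher for the superficial zone, 1 of 7 higher for osteoclasts, 2 of 9 lower for macrophages, 1 of 3 higher for skeletal muscle, 0 of 9 for B cells and 0 of 6 for adipocytes (DESeq2). No marker found in the table was at 0 in all libraries. The part of any of these tissues in the rise of the 8 collagens was not tested.

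Genes whose pattern over the 8 libraries was most like that of a collagen were named by a fixed rule, the root mean square difference of centred log2 values among 11039 genes. The mean profile of the collagen VI chains was nearest to Matn2 (0.101), Col5a1 (0.123), Timp1 (0.151), an inhibitor of metalloproteinases, Htra1 (0.156), a serine protease, and Postn (0.170), a matricellular protein. Postn (0.133) and Col5a1 (0.202) were also nearest to Col16a1. For Col8a2 they were Gpx3 (0.0914) and Tgfb3 (0.120), and for Col12a1 Palmd (0.110) and Wwtr1 (0.136), which encodes the co-activator Taz. Col8a1 was nearest to Nkd2 (0.169) and Hoxc10 (0.171). Col14a1 had no near neighbour by comparison, with Cpxm2 at 0.239 and the smooth muscle gene Tagln at 0.281. Among the 8 themselves, Col6a1 and Col6a2 were closest (0.0870), and Col8a1 and Col14a1 farthest apart (0.835). All of these are descriptions over libraries that share a difference between groups, depth and tissue make-up.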

How the data were processed

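RNA-seq of medial knee cartilage caps was available for 4 naive (day 0) and 4 DMM (day 42) mice, grouped by their titles. The deposited table holds estimated counts per Ensembl gene, which the authors made by trimming the reads with Trimmomatic, quantifying them with Kallisto and summing transcripts with tximport. Of all values 39.2% were not whole, and they were rounded for testing. The labels name a human genome build and the methods a mouse build, and the library kit also differs between them. Neither difference was resolved. Symbols were found for 96.8% of the identifiers.

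DESeq2 version 1.42.0 (R 4.3.3) was fitted to all 8 libraries without covariates (Wald test, size factors by the median of ratios, filters as by default, log2 fold changes not shrunken), and normalised counts are counts divided by these factors. Called genes changed by at least 1.5-fold and had a p no higher than 0.05 after Benjamini-Hochberg adjustment. Ratios, shares and pairs were compared with two-sided exact permutation tests over all 70 assignments of libraries, for which the smallest p is 0.0286. Ratios used a prior count of 1. The intervals of ratio differences hold the shifts that the permutation test does not reject at the 95% level. Levels per kilobase used the union of GENCODE exons. Alternatives were edgeR 4.0.16, limma 3.58.1 (voom), other size factors, filters and thresholds, the replicate number as a block, and leaving out each library. Scaling by the fibroblast list was added after the data were seen. Each mouse gave 1 library. Counting alone would give the 8 genes coefficients of variation of 0.753% to 6.58%. On simulated data with 200 genes changed by 2-fold, DESeq2 called 178 of them in the right direction among 19882 genes, beside 25 unchanged genes. On the same simulated data edgeR called 158 of the 200 in the right direction among 18490 genes, beside 7 unchanged genes. DESeq2 thus called more changed genes and also more unchanged genes than edgeR.

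The 8 genes and the gene and marker lists were chosen with earlier results of these data known. Named genes were all 8 members, the 3 called genes with the smallest adjusted p in each list, and the nearest 5 (collagen VI) or 2 genes by pattern among genes whose mean normalised count reached 100. The other listed genes given with values (Col6a4, Col6a6, the collagen IX chains, Col19a1, Col20a1, Col22a1, Col1a1, Col2a1, Cspg4, Ddr2, Antxr2, Itga1, Itga2, Itga10, Itga11, Tnxb, Thbs1, Aspn and the tissue markers) were picked after their values were seen. Chain lengths, Gly-X-Y runs and identities came from translated transcripts, and separate reference protein sequences were not analysed here. The promoters of Col12a1 and Col14a1 were not analysed either.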

Additional observations from a re-analysis of the deposited data

Results flagged for a closer look

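Of 86 groups of 4 values, 8 held a library that stood apart from its group by Dixon's criterion, where chance gives about 4.3. Among the collagens, Col8a1 had 240.8 normalised counts in naive 2, against 347.0 to 355.3 in the other naive libraries, and Col8a1 was called in every fit that left out 1 library. The ratio of Col6a1 to Col6a2 was 0.862 in naive 2 and 0.737 to 0.756 in the other naive libraries, while all 4 DMM libraries lay between 0.782 and 0.865. Col6a1 made up 17.9% of the summed counts of the 8 collagens in naive 4 and 19.2% to 19.4% in the others. Among markers of other cells, the erythroid list was at 1.26% of counts in DMM 3, against 0.598% to 0.653% in DMM 1, 2 and 4, and the macrophage list at 0.170% in naive 4 (0.195% to 0.199%). The endothelial list was at 0.0228% in naive 2 (0.0305% to 0.0309%). Skeletal muscle markers were at 0.00325% in naive 3 (0.000495% to 0.000885%) and at 0.00988% in DMM 1 (0.000435% to 0.000997%).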

How the results depend on the processing

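Over all genes, 2429 were called in the analysis reported. The count was 9564 with size factors from the fibroblast list (chosen after the data were seen), 4010 without the fold threshold and 94 against a null of 1.5-fold. Of the 8 collagens, 7 were called as reported, 1 with factors from the chondrocyte list, 3 (the collagen VI chains) with factors from the fibroblast list, where the median log2 fold change of all genes was -0.79, and 2 (Col6a1 and Col8a1) against the 1.5-fold null. edgeR, limma-voom, TMM factors, both other filters, the shrunken fold change and the replicate block each called 7, and the total count 8. Adjusted p values of the 7 called genes were larger in edgeR and limma-voom than in DESeq2. They ran from 0.0016 (Col8a1) to 0.0272 (Col8a2) in edgeR. In limma-voom they ran from 0.0018 to 0.0224, with the same genes at the ends. Distances from the group mean were hardly correlated between same-numbered libraries (correlations of 0.01, 0.08, -0.18 and 0.10). These values show no pairing by replicate number but cannot exclude it with 4 libraries a group. The replicate block called 2081 genes. The rise of 0.265 percentage points in the 8 genes' share of all counts had p = 0.125 in the exact sign-flip test over same-numbered pairs, the smallest p that test allows. With the longest transcript as length, normalised counts per kilobase were 1038 and 2705 for Col6a2 in naive and DMM libraries, 63.2 and 149.3 for Col8a1, 286.0 and 681.8 for Col12a1, and 1552 for Col6a3 and 612.0 for Col16a1 in DMM libraries.

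Leaving out each library in turn gave 1858 to 2842 called genes and 6 to 8 called collagens. It turned the direction of differences that were not past the threshold, whose ranges on the log2 scale were -0.0607 to 0.0704 for Col6a3 over Col6a1, -0.382 to 0.292 for Col14a1 over Col12a1 and -0.0574 to 0.182 for Col16a1 over Col12a1, and -0.506 to 1.44 percentage points for the share of collagen counts. The cause was not tested. The log2 fold changes of Col6a1 (1.28 to 1.66), Col6a2 (1.20 to 1.60), Col6a3 (1.19 to 1.70), Col8a1 (1.12 to 1.28), Col8a2 (0.76 to 1.16) and Col12a1 (1.07 to 1.45) stayed called in all 8 such fits.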
